A study of Rattus norvegicus with 8 samples.

Results

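This account covers 32 listed genes of protein folding, protein degradation and stress sensing in the endoplasmic reticulum (ER), followed in fetal rat pancreatic islets. A gene was measured where the array had a probe set that the platform annotation assigned to it alone, and 28 of the 32 were, among 14506 such genes in all. Ern1, Ero1b, Edem1 and Derl2 had no such probe set and were not analysed here. Each of the 28 had 1 such probe set. The islets came from 4 litters of growth-restricted fetuses (IUGR, intrauterine growth restriction), whose Sprague-Dawley dams had IUGR surgery on embryonic day 18, and from 4 litters of dams of the same strain that had sham surgery on that day. All islets were taken on embryonic day 19, 1 day after surgery, and those of a whole litter were pooled, so that 1 array stands for 1 litter. The sham dams were thus operated on as well. The labels do not describe the IUGR operation itself, and they name no sort of cells after islet isolation. Values are log2 expression values, in which a difference of 1 is a factor of 2.

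Proteins bound for secretion enter the ER through the Sec61 channel, are folded there by chaperones and disulphide-forming enzymes, and are sent back to the cytosol for destruction if folding fails. When unfolded protein builds up, the membrane sensors PERK (encoded by Eif2ak3), IRE1 (Ern1) and ATF6 slow translation and switch on genes for chaperones and degradation factors, which is called the unfolded protein response. Beta cells, which make proinsulin, and acinar cells, which make digestive enzymes, both carry a heavy secretory load, and mutations of EIF2AK3 or DNAJC3 cause diabetes in people.

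Many of these genes are controlled through short promoter motifs, which are shown here because the members that share a motif did not share a difference between the groups. The RefSeq promoter windows of the rat assembly GRCr8, which run from 250 bases before to 50 bases after the gene start, held 24 of the 32 genes. The ER stress response element (ERSE, the letters CCAAT and CCACG with any 9 bases between them, searched on both strands) was found in 9 of the 24, or 37.5%, against 0.0657% of all 33469 windows. ERSE-II (ATTGG and CCACG with any 1 base between them, both strands) was in 3 of the 24, or 12.5%, against 0.0508% of all windows. The unfolded protein response element (UPRE, TGACGTGG, both strands) was in 1 of them, Hyou1, against 0.595% of all windows, and there it overlapped an ERSE-II match. Of 101 other ER pathway genes with a window, 0 held ERSE or ERSE-II, and 8 held UPRE. Members were counted by gene, with a match in any window of the gene, while the shares of all windows count single windows. A match is a description of the letters in the window and shows no binding. The matches of the 12 genes with ERSE or ERSE-II read as follows on the strand that matches, 5′ to 3′, with the fixed letters of the motif in capitals.
Hspa5 ERSE: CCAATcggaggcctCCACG
Hsp90b1 ERSE, gene strand: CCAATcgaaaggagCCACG
Hsp90b1 ERSE, opposite strand: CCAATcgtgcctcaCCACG
Calr ERSE: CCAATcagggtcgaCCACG
Canx ERSE: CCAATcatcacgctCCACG
Dnajc3 ERSE: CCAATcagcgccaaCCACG
Creld2 ERSE: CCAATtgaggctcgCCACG
Xbp1 ERSE: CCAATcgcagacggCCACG
Derl3 ERSE: CCAATaaggaagtcCCACG
Ero1b ERSE: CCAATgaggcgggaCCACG
Herpud1 ERSE-II: ATTGGgCCACG
Dnajb11 ERSE-II: ATTGGcCCACG
Hyou1 ERSE-II, farther from the gene start: ATTGGcCCACG
Hyou1 ERSE-II, nearer the gene start: ATTGGgCCACG

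Whole windows are given for 3 genes that carry such a match and differed unlike one another between the groups (values further on): Herpud1 at chr19:10614658-10614957, - strand, Dnajc3 at chr15:102432417-102432716, + strand, and Hspa5 at chr3:38452766-38453065, + strand (all GRCr8). They are printed on the gene's strand, 5′ to 3′, with the ERSE or ERSE-II match in capitals. The match begins 124 bases before the gene start in Herpud1, 133 bases before it in Dnajc3 and 43 bases before it in Hspa5.
Herpud1: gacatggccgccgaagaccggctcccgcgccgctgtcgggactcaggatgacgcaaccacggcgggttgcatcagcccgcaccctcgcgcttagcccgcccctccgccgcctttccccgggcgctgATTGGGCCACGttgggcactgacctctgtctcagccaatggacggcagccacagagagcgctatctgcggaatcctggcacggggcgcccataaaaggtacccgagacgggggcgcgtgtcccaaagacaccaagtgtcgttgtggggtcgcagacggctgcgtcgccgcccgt
Dnajc3: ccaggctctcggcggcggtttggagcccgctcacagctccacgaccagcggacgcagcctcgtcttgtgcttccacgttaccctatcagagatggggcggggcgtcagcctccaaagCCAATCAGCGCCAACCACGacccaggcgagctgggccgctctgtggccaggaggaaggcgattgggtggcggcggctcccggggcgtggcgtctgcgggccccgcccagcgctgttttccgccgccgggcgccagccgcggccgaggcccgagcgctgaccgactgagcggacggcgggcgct
Hspa5: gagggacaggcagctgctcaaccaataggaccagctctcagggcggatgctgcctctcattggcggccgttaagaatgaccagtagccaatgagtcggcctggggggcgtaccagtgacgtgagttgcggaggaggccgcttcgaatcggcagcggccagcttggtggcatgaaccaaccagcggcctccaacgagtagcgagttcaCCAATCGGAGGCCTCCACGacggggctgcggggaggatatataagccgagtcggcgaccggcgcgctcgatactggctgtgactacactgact

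**Figure D1:**
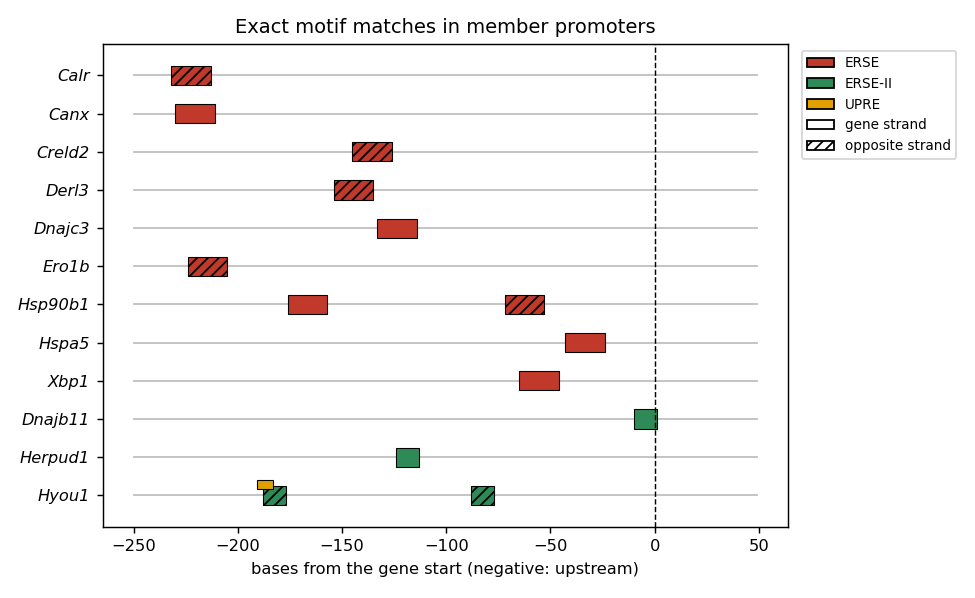
Positions of exact ERSE, ERSE-II and UPRE matches in the promoter windows of the 12 genes with ERSE or ERSE-II, in bases from the gene start (x axis; negative is upstream). Plain bars match on the gene's strand and hatched bars on the opposite strand; the Hspa5 match begins 43 bases before the gene start and the Calr match 232 bases before it.

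Over the 28 measured genes, values were higher in the IUGR than in the sham litters in 25, or 89.3%. This compares with 55.1% of all genes and 72.8% of the genes with a mean of at least 10. The median log2 difference of the 28 was 0.25. None of the 28 passed the threshold of an adjusted p of 0.05 (limma, Benjamini-Hochberg over all 14506 genes), where 0.248% of all genes passed, and the lowest adjusted p was 0.063. At an unadjusted p under 0.05, 14 of the 28 were higher and 0 lower, where 15.4% of all genes were higher at that level. In 9 of the 28, or 32.1%, every IUGR litter lay above every sham litter, against 10.0% of all genes. The reverse, every IUGR litter below every sham litter, was seen in 0 of the 28 and in 5.45% of all genes. The 3 largest differences, of Herpud1, Sel1l and Os9, belonged to ER-associated degradation, while the classical chaperones Hspa5, Hsp90b1, Calr and Canx differed by at most 0.11.

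The array scale bears on these counts. Sham replicates 2, 3 and 4 had a narrower range of gene values than the other arrays, with interquartile ranges of 3.20, 3.23 and 3.06. The 4 IUGR litters had ranges of 3.53 to 3.62, and sham replicate 1 had 3.63. The array medians of sham replicates 2, 3 and 4 were lower too, at 8.48, 8.55 and 8.49. Sham replicate 1 had a median of 8.81, and IUGR replicates 1 to 4 had 8.79, 8.85, 8.85 and 8.76. RMA as usually run gives all arrays of a set a like distribution of values, and these arrays did not share one, so how their common scale was set is not known here. The median difference was 0.04 over all genes and 0.13 over the 4118 genes with a mean of at least 10, to which 27 of the 28 belong. Among those bright genes, 72.8% were higher in IUGR, against 89.3% of the members. Every IUGR litter lay above every sham litter in 14.6% of the bright genes, against 32.1% of the members. The same 55.1% of all genes and 72.8% of bright genes are the background for the smaller lists further on. After quantile normalization the median of the members was 0.14, against -0.01 for the bright genes, and 24 of 28 were higher, against 49.4% of all genes. The groups then stayed apart in 2 of 28 members, Herpud1 and Sel1l, which is 7.14% of them and no more than the 7.24% of all genes. At an unadjusted p under 0.05, 6 of 28 (21.4%) were higher after quantile normalization, against 10.5% of all genes. Median centring moved the median of all genes by -0.23 and left 15 of 28 members higher, against 28.1% of all genes. The member median was then 0.02. Centring shifts every gene of an array alike, so the distance of the members from other genes cannot change. With or without it, the member median lay 0.21 above that of all genes and 0.12 above that of the bright genes.

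**Figure D2:**
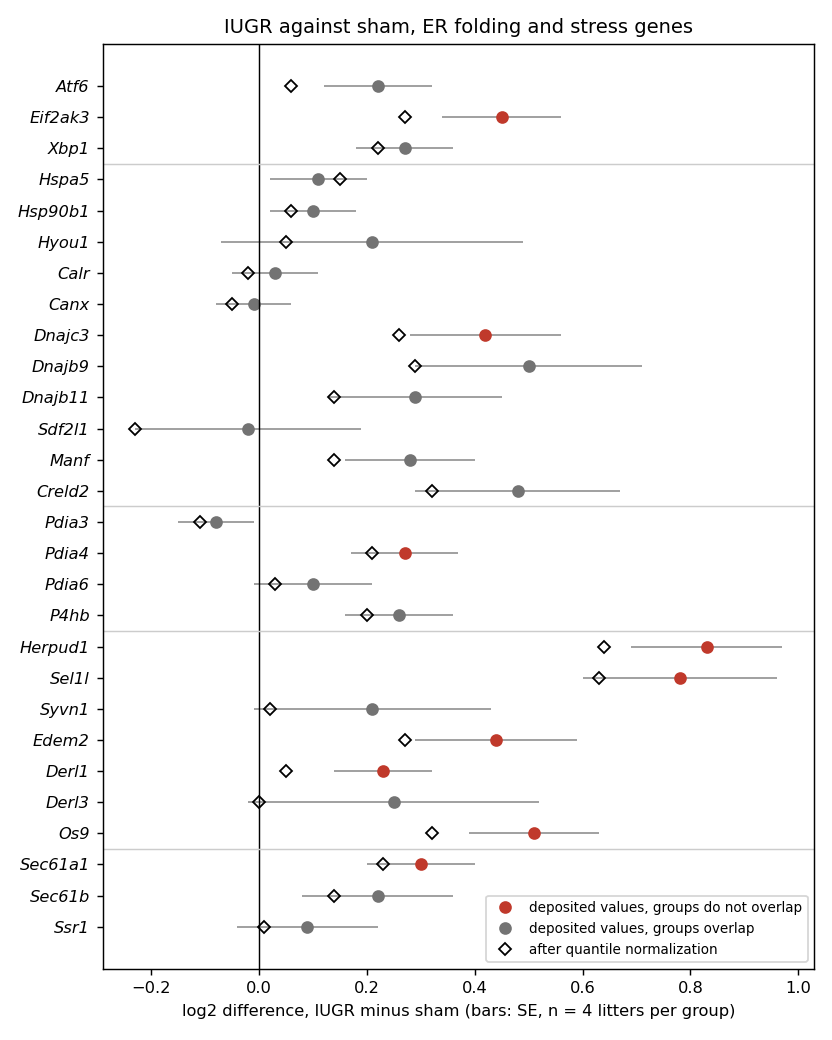
Log2 difference, IUGR minus sham, of the 28 measured genes in the order of their roles (bars are the standard error of the fit, 4 litters per group). Red points are the 9 genes whose groups do not overlap, grey points the others, and open diamonds the differences after quantile normalization; Herpud1 (0.83) and Sel1l (0.78) lie farthest to the right.

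Of the genes of ER-associated degradation, 7 of the 9 listed were measured, all 7 were higher, and 5 had groups that did not overlap, where 10.0% of all genes and 14.6% of bright genes did so as higher. After quantile normalization 2 of the 5, Herpud1 and Sel1l, still had separate groups. Their median difference was 0.44, and it was 0.27 after quantile normalization and 0.21 after median centring. Herpud1, which encodes a stress-induced membrane protein that organises the degradation complex, had values of 10.67, 10.60, 10.84 and 11.03 in IUGR replicates 1 to 4, against 10.20, 9.64, 9.99 and 10.02 in sham replicates 1 to 4. The gap between the lowest IUGR and the highest sham litter was 0.41, the widest of the 28 members. The difference was 0.83 ± 0.14 (SE, n = 4 per group), a fold of 1.77, with an adjusted p of 0.063 (limma). It lay between 0.72 and 0.90 when any 1 litter was left out, and was 0.64 after quantile normalization.

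Sel1l, the adaptor that stabilises the ubiquitin ligase Syvn1 (HRD1) and brings substrates to it, had values of 11.17, 10.97, 11.00 and 11.72 in IUGR replicates 1 to 4, against 10.48, 10.21, 10.64 and 10.40 in sham replicates 1 to 4. IUGR replicate 4 stood above the other IUGR litters, and all 4 lay above the sham litters. The difference was 0.78 ± 0.18 (SE), a fold of 1.72, with an adjusted p of 0.093 (limma). Os9, a lectin that hands misfolded glycoproteins to that complex, had values of 10.68, 10.47, 10.67 and 10.93 in IUGR replicates 1 to 4, against 10.34, 9.97, 10.17 and 10.22 in sham replicates 1 to 4. Its groups were separate by 0.13, and it differed by 0.51 ± 0.12 (SE, adjusted p = 0.096, limma).

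Edem2, which starts the mannose trimming that marks glycoproteins for destruction, lay between 10.65 and 11.31 in the IUGR litters and between 10.37 and 10.49 in the sham litters. Its difference of 0.44 ± 0.15 was carried in part by IUGR replicate 4 (11.31), without which it was 0.30. Derl1, a derlin of the channel through which substrates leave the ER, differed by 0.23 ± 0.09, from 10.53 to 10.81 in the IUGR litters and from 10.35 to 10.43 in the sham litters. After quantile normalization Derl1 differed by 0.05. The ligase gene Syvn1 itself lay at 10.34, 10.58, 10.41 and 10.77 in IUGR replicates 1 to 4, against 10.32, 9.91, 10.08 and 10.96 in sham replicates 1 to 4. Sham replicate 4 was thus the highest of all 8 litters, and the difference was 0.21 ± 0.22 with that litter and 0.42 without it. The Syvn1 difference was 0.07 without sham replicate 2, and 0.13 without either sham replicate 3 or IUGR replicate 4. Derl3, a derlin of secretory tissues, had the same outlying sham litter and a high IUGR replicate 2. It lay at 8.47, 9.41, 8.51 and 8.76 in IUGR replicates 1 to 4, against 8.44, 8.42, 8.12 and 9.17 in sham replicates 1 to 4, with a difference of 0.25 ± 0.27. That difference was 0.46 without sham replicate 4, 0.11 without sham replicate 3 and 0.04 without IUGR replicate 2.

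Of the sensor branch, 3 of 4 genes were measured and all were higher, by 0.22 to 0.45. Eif2ak3, the gene of the kinase PERK, had values of 10.66, 10.50, 10.55 and 10.78 in IUGR replicates 1 to 4, against 10.36, 10.07, 10.29 and 9.97 in sham replicates 1 to 4. The groups did not overlap, and the difference was 0.45 ± 0.11 (SE, fold 1.36, adjusted p = 0.105, limma). Xbp1, whose mRNA is spliced by IRE1 into the code for an active transcription factor, lay at 13.23, 13.28, 13.03 and 13.23 in IUGR replicates 1 to 4, against 12.91, 12.89, 13.09 and 12.81 in sham replicates 1 to 4. The groups overlapped because IUGR replicate 3 lay below sham replicate 3. The difference was 0.27 ± 0.09 (SE, adjusted p = 0.144, limma), and the values do not tell spliced from unspliced Xbp1. Atf6, the gene of the sensor that is cut in the Golgi to release a transcription factor, differed by 0.22 ± 0.10, from 10.71 to 10.96 in the IUGR litters and from 10.47 to 10.81 in the sham litters. The Atf6 difference was 0.06 after quantile normalization and -0.01 after median centring.

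All 11 listed chaperones and co-chaperones were measured, and 9 (81.8%) were higher, against 55.1% of all genes and 72.8% of bright genes. Groups did not overlap in 1 of the 11, where 10.0% of all genes and 14.6% of bright genes were higher without overlap. The median difference over the 11 was 0.21. Median centring brought that median to -0.03. Hspa5, which encodes BiP, the main ER chaperone and the protein that holds the sensors inactive, had values of 13.57, 13.77, 13.61 and 13.71 in IUGR replicates 1 to 4, against 13.57, 13.45, 13.51 and 13.67 in sham replicates 1 to 4. The groups overlapped widely, and the difference was 0.11 ± 0.09 (SE, fold 1.08, adjusted p = 0.405, limma). Its values were near the highest of any gene on these arrays, 14.03 to 14.24. Hsp90b1, the ER form of HSP90, differed by 0.10 ± 0.08, and the lectin chaperones Calr and Canx by 0.03 ± 0.08 and -0.01 ± 0.07. These 3 genes lay between 13.05 and 13.32 in every litter.

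The genes that serve BiP varied more. Dnajc3, a co-chaperone that brings substrates to BiP, had values of 10.95, 11.24, 10.92 and 11.51 in IUGR replicates 1 to 4, against 10.84, 10.59, 10.78 and 10.73 in sham replicates 1 to 4. It was the 1 chaperone gene without overlap, though its groups were only 0.08 apart, and it differed by 0.42 ± 0.14 (SE, adjusted p = 0.141, limma). Dnajb9, a co-chaperone that holds IRE1 in check, had values of 10.44, 10.38, 10.22 and 10.24 in IUGR replicates 1 to 4, against 9.93, 9.39, 9.53 and 10.43 in sham replicates 1 to 4. Sham replicate 4 lay among the IUGR litters, and the difference was 0.50 ± 0.21 with it and 0.70 without it. Hyou1, a chaperone that exchanges the nucleotide of BiP, had values of 10.67, 11.13, 10.74 and 11.28 in IUGR replicates 1 to 4, against 10.56, 10.28, 10.57 and 11.59 in sham replicates 1 to 4. Its difference of 0.21 ± 0.28 was 0.48 without sham replicate 4, the highest litter, but 0.10 without IUGR replicate 4 and 0.05 without sham replicate 2.

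Creld2, a stress-induced protein that binds folding substrates, had values of 10.78, 11.33, 10.75 and 11.52 in IUGR replicates 1 to 4, against 10.52, 10.58, 10.80 and 10.56 in sham replicates 1 to 4. IUGR replicates 2 and 4 were high and replicates 1 and 3 lay at the sham level, which gave a difference of 0.48 ± 0.19 with overlapping groups. Dnajb11, another co-chaperone of BiP, showed that pattern too, at 11.31 and 11.54 in IUGR replicates 2 and 4 and 10.83 and 10.88 in IUGR replicates 1 and 3, against 10.73 to 10.90 in the sham litters (difference 0.29 ± 0.16, or 0.16 without IUGR replicate 4). Manf, a stress-induced protein that binds BiP and supports beta cells in mice, was at 11.33 and 11.40 in IUGR replicates 2 and 4 and at 11.00 and 11.08 in IUGR replicates 1 and 3, against 10.74 to 11.09 in the sham litters (0.28 ± 0.12). Sdf2l1, a partner of the Dnajb11 protein, differed by -0.02 ± 0.21, and its IUGR litters ran from 9.49 in replicate 1 to 10.50 in replicate 2, wider than the sham litters (10.01 to 10.23).

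Of the enzymes that form and shuffle disulphide bonds, 4 of 5 were measured and 3 were higher, by a median of 0.18 over the 4, or -0.05 after median centring. Pdia4 had values of 12.65, 12.87, 12.68 and 12.96 in IUGR replicates 1 to 4, against 12.50, 12.44, 12.61 and 12.53 in sham replicates 1 to 4, and the groups were 0.04 apart. It differed by 0.27 ± 0.10 (SE, adjusted p = 0.145, limma). P4hb, protein disulphide isomerase itself, differed by 0.26 ± 0.10, and only sham replicate 4 (12.88) reached the IUGR litters (12.87 to 13.10). Pdia6 differed by 0.10 ± 0.11, by 0.02 without IUGR replicate 4 and by 0.16 without sham replicate 4. Pdia3, which works with Calr and Canx on glycoproteins, differed by -0.08 ± 0.07, from 13.42 to 13.49 in the IUGR litters and from 13.47 to 13.65 in the sham litters.

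The 3 translocon genes were all measured and all higher, by a median of 0.22, or -0.01 after median centring. Sec61a1, the pore of the channel, had values of 12.78, 12.92, 12.82 and 13.11 in IUGR replicates 1 to 4, against 12.61, 12.51, 12.69 and 12.63 in sham replicates 1 to 4. Its groups did not overlap, and it differed by 0.30 ± 0.10 (SE, adjusted p = 0.133, limma). Sec61b, a small subunit of the channel, and Ssr1, a subunit of the translocon-associated protein complex that aids preproinsulin entry, differed by 0.22 ± 0.14 and 0.09 ± 0.13. In both, sham replicate 4 was the lowest of the 8 litters, at 12.01 for Sec61b and 12.09 for Ssr1. Without that litter the differences were 0.11 for Sec61b and 0.01 for Ssr1, and without IUGR replicate 4 they were 0.12 and -0.01.

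**Figure D3:**
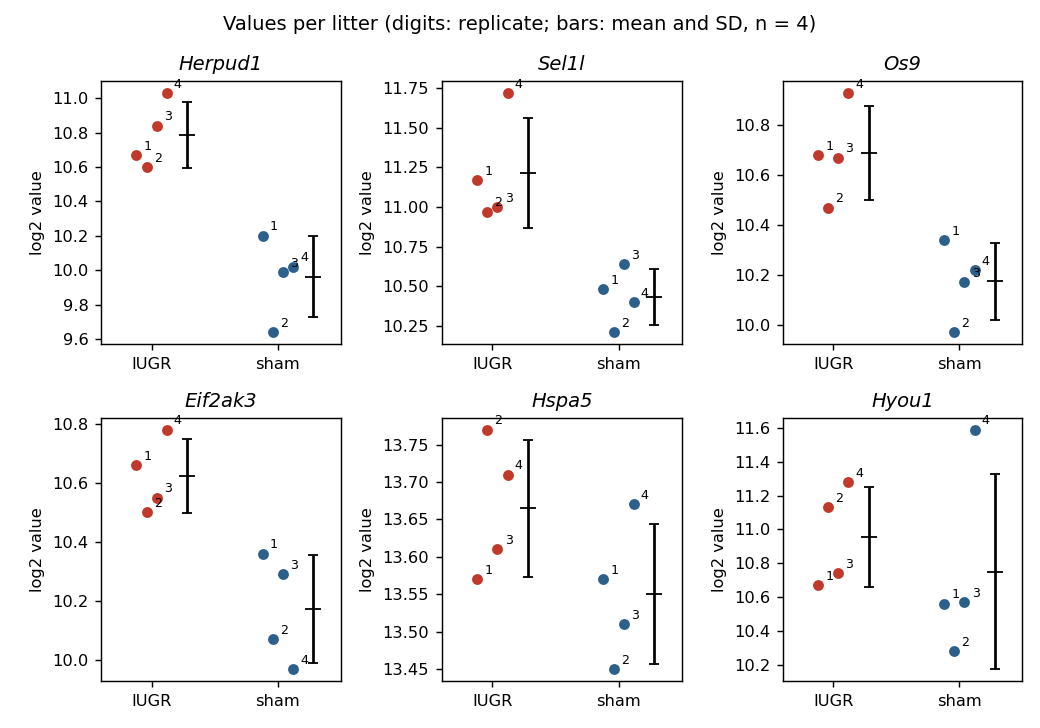
Log2 values per litter of 6 genes, IUGR left and sham right, with the replicate number beside each point and the mean and SD (n = 4) as bars. Herpud1, Sel1l, Os9 and Eif2ak3 show no overlap between groups, whereas Hspa5 overlaps and Hyou1 is highest in sham replicate 4 (11.59).

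The litters did not move as 2 uniform groups. IUGR replicate 4 was the highest of all 8 litters in 17 of the 28 genes, or 60.7%, against 20.6% of all genes. IUGR replicate 2 was the highest in 5 of them, and a sham litter in the 5 genes Hsp90b1, Hyou1, Calr, Pdia3 and Syvn1. For these counts the share of all genes was not worked out. Among the IUGR litters alone, replicate 2 was the highest in 28.6% of the 28, against 21.3% of all genes. The mean of the 28 genes was 11.55, 11.73, 11.56 and 11.87 in IUGR replicates 1 to 4, against 11.41, 11.30, 11.41 and 11.50 in sham replicates 1 to 4. Within the sham group, replicate 4 was the highest litter in 11 genes, or 39.3%, against 28.4% of all genes, and the lowest in 7, or 25.0%, against 38.3% of all genes. The 11 were Hspa5, Hsp90b1, Hyou1, Calr, Dnajb9, Pdia3, Pdia6, P4hb, Syvn1, Edem2 and Derl3, mostly chaperones and enzymes. The 7 were Eif2ak3, Xbp1, Canx, Sdf2l1, Derl1, Sec61b and Ssr1. Sham replicate 2 was the lowest sham litter in 13 genes, or 46.4%, against 20.6% of all genes. The 13 were Atf6, Hspa5, Hsp90b1, Hyou1, Dnajc3, Dnajb9, Dnajb11, Pdia4, Herpud1, Sel1l, Syvn1, Os9 and Sec61a1. The median SD over the 28 genes was 0.19 in the IUGR litters and 0.12 in the sham litters.

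**Figure D4:**
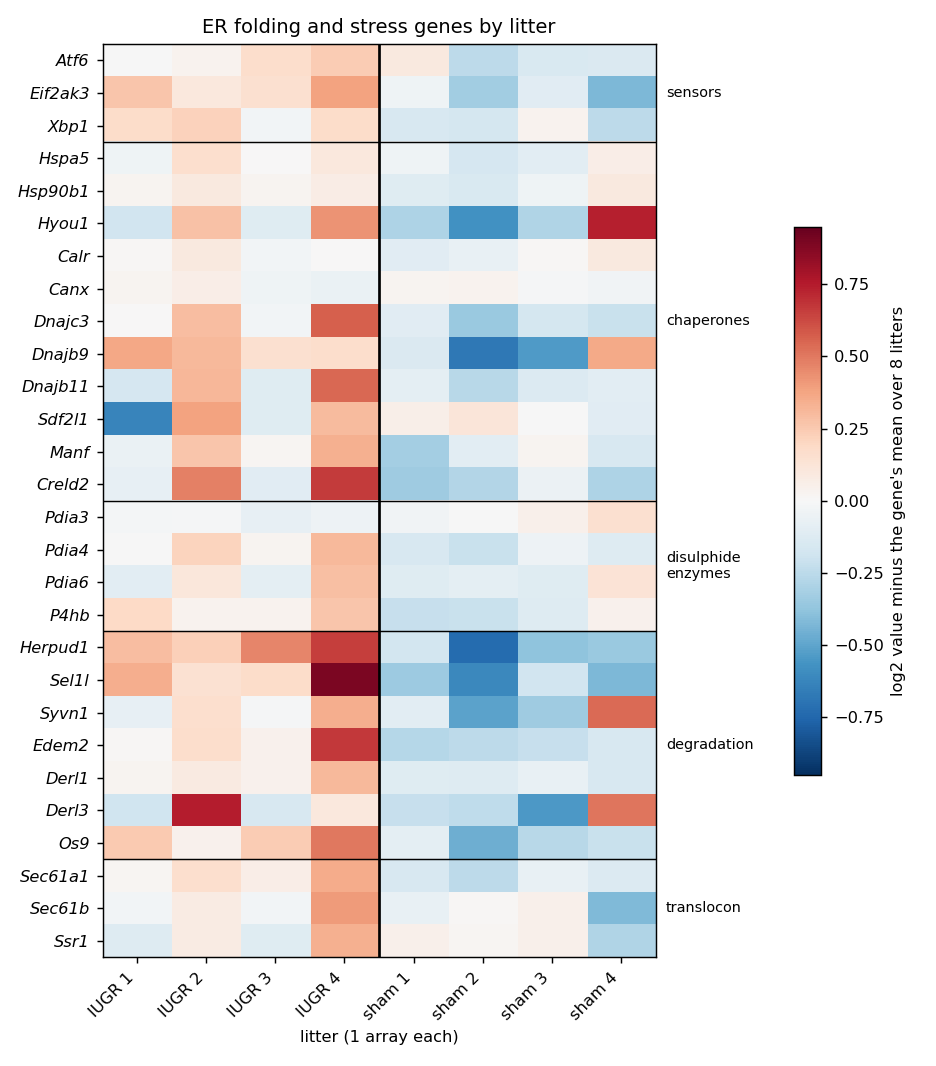
Heat map of the 28 genes by role (rows) and litter (columns, IUGR left of the black line, sham right), coloured by the log2 value minus the gene's mean over the 8 litters. IUGR replicate 4 is the highest litter in 17 of the 28 genes, and sham replicate 4 holds both high values (Hyou1, Syvn1, Derl3, Dnajb9) and low ones (Sec61b, Ssr1, Eif2ak3).

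Transcripts typical of other cell types were present in these islet pools and varied between litters. In bulk RNA, fewer cells of a type and less RNA per cell cannot be told apart. Of 25 listed acinar enzyme genes 20 were measured, and their mean was 11.00, 10.88, 10.57 and 11.39 in IUGR replicates 1 to 4, against 10.19, 10.52, 10.64 and 9.41 in sham replicates 1 to 4. The difference was 0.77 with an exact two-sided permutation p of 0.057 over 70 arrangements (n = 4 per group), where 0.029 is the smallest p possible. Leaving out sham replicate 4 gave 0.51. Leaving out sham replicate 3 gave 0.92, with groups that did not overlap and an unadjusted exact permutation p of 0.029, again the smallest possible. Of the 20 genes 19 were higher in the IUGR litters, among them Ctrl by 1.67, Cela2a by 1.09 and Pla2g1b by 0.84, and none passed over all genes. For the labelled tissue, 19 of 22 islet endocrine genes were measured. Their mean was 10.71 to 11.20 in the IUGR litters and 10.23 to 10.41 in sham replicates 1 to 3, but 11.87 in sham replicate 4, the litter with the lowest acinar mean. The mean of 21 liver plasma protein genes was 11.93, 11.15, 12.22 and 12.70 in IUGR replicates 1 to 4, against 11.35, 9.41, 10.80 and 8.90 in sham replicates 1 to 4 (exact permutation p = 0.057). Of 9 genes of plasma cells, another secretory type, 7 were measured, with means of 7.54 to 8.18 in the IUGR litters and 8.02 to 8.62 in the sham litters. The means of 12 duct genes were 10.79 to 11.08 in the IUGR litters and 9.68 to 10.38 in the sham litters, and those of 11 other acinar markers 8.93 to 9.93 and 7.47 to 8.81 (exact permutation p = 0.029 for each). Means were lower in the IUGR litters for 12 mesenchyme genes by -0.58, 12 macrophage genes by -0.57 and 8 erythroid genes by -0.67, with exact permutation p-values of 0.029, 0.143 and 0.086. None of the 9 lists passed after adjustment over them, the lowest adjusted p being 0.086. Array values have no zero, and how far any of these cells account for the differences of the ER genes was not tested.

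The relation of each ER gene to the acinar enzyme mean was measured over the 8 litters for all 14506 genes. Pearson's r was positive in 23 of the 28 members (82.1%), against 51.2% of all genes. The median was 0.58, against a median of 0.03 over all genes. After quantile normalization r was positive in 17 of the 28, against 49.8% of all genes, with a median of 0.30, against -0.0049 over all genes. None of the 28 passed when exact permutation p-values were adjusted over all genes, where 0.365% of genes passed for r and 0 for Spearman's rho. At an unadjusted exact permutation p under 0.05, 8 of the 28 (28.6%) correlated, all positively, against 14.1% of all genes that did so positively and 19.5% in either direction. The 8 were Eif2ak3, Xbp1, Manf, Creld2, Sel1l, Derl1, Sec61b and Ssr1. By rho 10 of the 28 did, or 35.7%, against 12.2% of all genes in either direction. By r, Sec61b was closest to the acinar mean, with r = 0.92 (exact permutation p = 0.004, adjusted p = 0.117) and rho = 0.74 (exact p = 0.046, adjusted p = 0.375). By rho, Creld2 was closest, with rho = 0.90 (exact permutation p = 0.005, adjusted p = 0.205) and r = 0.74 (exact p = 0.036, adjusted p = 0.229). Xbp1 was second on both measures, with r = 0.87 (exact permutation p = 0.001, adjusted p = 0.096) and rho = 0.88 (exact p = 0.007, adjusted p = 0.227), and Eif2ak3 with r = 0.84 (exact permutation p = 0.007, adjusted p = 0.140) and rho = 0.83 (exact p = 0.015, adjusted p = 0.281). Sham replicate 4 and IUGR replicate 4, the lowest and the highest in acinar mean, were the 2 litters farthest from its median. Without them r was 0.54 for Sec61b, 0.67 for Creld2, 0.88 for Xbp1 and 0.54 for Eif2ak3, so that of these 4 only Xbp1 had as high an r.

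In 11 members r was 0.19 or lower, with exact permutation p-values of 0.060 to 0.974, and rho was -0.40 to 0.36. Pdia3 had the lowest r, -0.72 (exact permutation p = 0.060, adjusted p = 0.274), with a rho of -0.40 (exact p = 0.327). The chaperone genes had r = 0.15 for Hspa5, 0.10 for Hsp90b1, 0.03 for Canx, -0.11 for Calr, 0.01 for Dnajb9, -0.21 for Hyou1 and 0.16 for Sdf2l1. The other members had 0.19 for Pdia6, -0.20 for Syvn1 and -0.17 for Derl3. Sham replicate 4 was the highest sham litter in 9 of the 11 and the lowest in Canx and Sdf2l1. Without the 2 litters r was 0.12 for Pdia3, -0.34 for Sdf2l1 and 0.18 to 0.85 for the remaining 9. Herpud1 had r = 0.61, and 0.45 without the 2 litters. Each group holds 4 litters, too few for a correlation of its own. With values and acinar mean centred within each group, r was 0.92 for Sec61b, 0.81 for Ssr1 and 0.72 for Xbp1, but -0.07 for Herpud1, 0.05 for Os9 and -0.80 for Dnajb9. The median of this r over the 28 was 0.21, against 0.07 over all genes. It was positive in 16 of the 28 (57.1%), near the 54.6% of all genes.

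**Figure D5:**
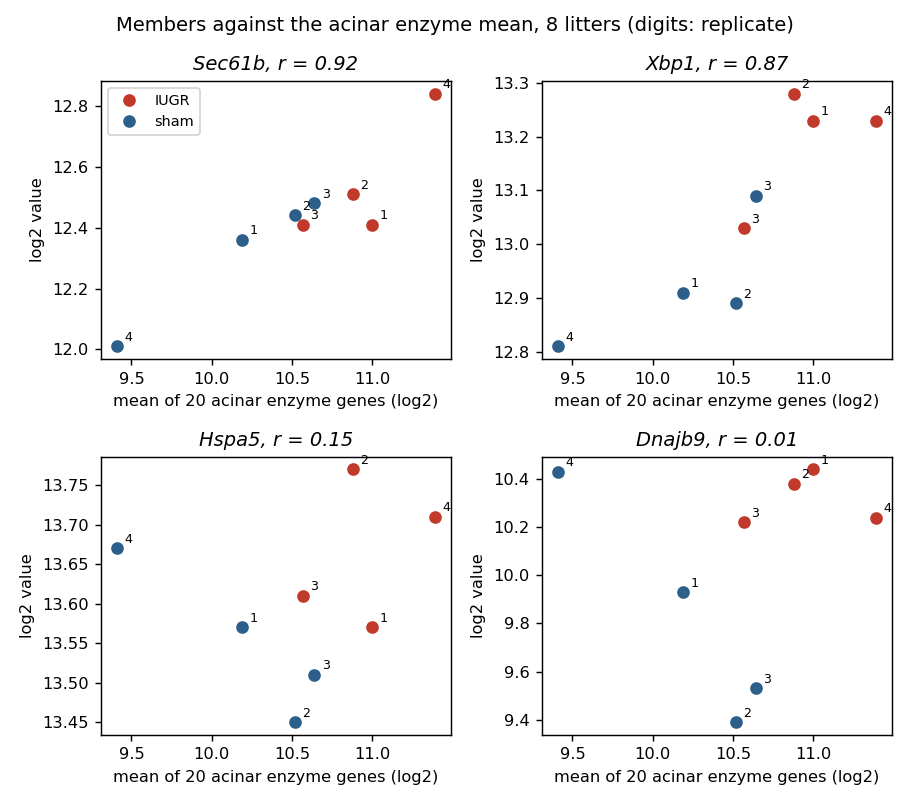
Log2 values of Sec61b, Xbp1, Hspa5 and Dnajb9 (y axes) against the mean of 20 acinar enzyme genes per litter (x axes, log2), IUGR in red and sham in blue, with replicate numbers. Sec61b and Xbp1 follow the acinar mean, while sham replicate 4, at an acinar mean of 9.41, lies high for Hspa5 and Dnajb9.

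When the acinar mean entered the fit beside the group, the median difference of the 28 genes was 0.22, and 23 were higher, against 50.3% of all genes. At an unadjusted p under 0.05, 4 of the 28 (14.3%) were higher, namely Dnajb9, Herpud1, Sel1l and Os9, against 10.8% of all genes. Herpud1 then differed by 0.85 ± 0.21, Os9 by 0.50 ± 0.18, Sel1l by 0.56 ± 0.23 and Dnajb9 by 0.95 ± 0.20 (SE). The degradation genes had a median of 0.56 in that fit, against 0.44 without the acinar mean, and the translocon genes -0.10, against 0.22. Syvn1 rose from 0.21 to 0.58, Derl3 from 0.25 to 0.66 and Dnajb9 from 0.50 to 0.95, while Sel1l, Edem2 and Derl1 fell. Sham replicate 4, the litter with the lowest acinar mean (9.41), was the highest sham litter in Syvn1, Derl3 and Dnajb9. How far that litter shaped the fit was not tested. Xbp1 differed by 0.13 and Eif2ak3 by 0.28, each less than without the acinar mean. With the liver mean in its place the median of the 28 was 0.22, and 24 were higher, against 44.4% of all genes. Of the 28, Herpud1 and Derl3 (7.14%) were then higher at an unadjusted p under 0.05, against 3.99% of all genes, and Herpud1 differed by 0.53. Both means themselves differed between the groups, by 0.77 and 1.88.

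Of 118 listed symbols for other genes of the ER pathway, some of them old and new names of the same gene, 100 were measured. Of the 100, 88 were higher, against 55.1% of all genes and 72.8% of bright genes, and none passed over all genes. Groups did not overlap in 32, all of them higher, against 10.0% of all genes and 14.6% of bright genes. Of the 100, 35 had an unadjusted p under 0.05, each with the higher mean in IUGR, against 15.4% of all genes. Their median was 0.21, and it was 0.09 after quantile normalization and -0.03 after median centring. All 19 genes of targeting, translocation and signal cleavage were higher, 9 without overlap, to be read against the same 10.0% and 14.6%. The receptor of the signal recognition particle, Srpra, had values of 12.55, 12.54, 12.53 and 12.68 in IUGR replicates 1 to 4, against 12.15, 12.05, 12.19 and 12.24 in sham replicates 1 to 4. It differed by 0.41 ± 0.08 (adjusted p = 0.072, limma), Sec63, a partner of the channel, by 0.55 ± 0.13 and Srp54a by 0.40 ± 0.11.

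Among 19 other folding enzymes, 17 were higher and 9 had no overlap, where 10.0% of all genes and 14.6% of bright genes did so as higher. Qsox1, a sulphydryl oxidase, differed by 0.84 ± 0.16, the oxidase gene Ero1a by 0.53 ± 0.10 and the prolyl isomerase gene Fkbp2 by 0.55 ± 0.13, with adjusted p-values of 0.072, 0.073 and 0.096 (limma). Ero1a lay between 11.46 and 11.78 in the IUGR litters, against 10.97 to 11.28 in the sham litters. Of 13 genes of glycan transfer and processing 12 were higher, by a median of 0.24, with the oligosaccharyltransferase genes Ddost at 0.28 ± 0.08, Stt3a at 0.29 ± 0.10 and Magt1 at 0.32 ± 0.11. Of 16 further degradation genes 14 were higher, by a median of 0.18, or 0.02 after quantile normalization and -0.05 after median centring. Groups did not overlap in 3 of the 16, to be read against the same 10.0% and 14.6%. Smallest in p were Selenos at 0.47 ± 0.12, Ubxn4 at 0.35 ± 0.12 and Faf2 at 0.31 ± 0.11. Of 13 genes of traffic between ER and Golgi 10 (76.9%) were higher, against 72.8% of bright genes. Kdelr1, a receptor that returns ER proteins such as BiP, differed by 0.36 ± 0.08, Mcfd2 by 0.60 ± 0.19 and Lman1 by 0.33 ± 0.13.

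Of the listed genes of the PERK arm, 9 of 11 measured (81.8%) were higher, against 55.1% of all genes and 72.8% of bright genes. The differences of the 11 ran from -0.17 to 1.31, with a median of 0.27. That median was 0.16 after quantile normalization and 0.04 after median centring. Values are given for the 3 genes with the smallest p. Atf4, Ddit3, Atf3, Trib3, Ppp1r15a and Asns were also measured, and their values are not shown here. Nupr1, a stress-induced gene, had values of 11.35, 10.49, 10.63 and 11.46 in IUGR replicates 1 to 4, against 9.96, 9.72, 10.00 and 9.02 in sham replicates 1 to 4, a difference of 1.31 ± 0.29 (adjusted p = 0.087, limma). Ppp1r15b, which directs the removal of the phosphate that PERK adds to eIF2α, differed by 0.30 ± 0.11, and Chac1 by 0.27 ± 0.11. With the acinar mean in the fit, the differences were 0.66 for Nupr1, 0.29 for Ppp1r15b and 0.45 for Chac1. With the liver mean in its place they were 0.59, 0.08 and 0.25 in that order. Of 9 genes for other membrane-bound factors and their proteases 7 (77.8%) were higher, against the same 55.1% and 72.8%, and none had separate groups. Creb3l3, a factor best known from liver, lay at 10.04, 8.24, 9.91 and 10.23 in IUGR replicates 1 to 4, against 7.98, 7.95, 7.92 and 8.58 in sham replicates 1 to 4. Mbtps2, a protease that cuts ATF6, differed by 0.46 ± 0.22, or by 0.25 without sham replicate 4, its lowest litter. Creb3l1 differed by -0.31 ± 0.29 and lay at 9.60 to 10.03 in the IUGR litters and 9.73 to 9.86 in sham replicates 1 to 3, but at 11.07 in sham replicate 4, without which the difference was 0.01.

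The genes outside the list whose values ran closest to the mean of the 28 over the 8 litters were Rpn2 (Pearson's r of 0.982, as a description), Osbp (0.974), Rraga (0.968), Sf3a1 (0.967), Mdh1 (0.966), Zdhhc2 (0.966), Rwdd1 (0.965) and Gars1 (0.963). Rpn2 encodes a subunit of the oligosaccharyltransferase at the translocon. It had values of 12.57, 12.69, 12.63 and 12.91 in IUGR replicates 1 to 4, against 12.45, 12.33, 12.48 and 12.55 in sham replicates 1 to 4, and differed by 0.25 ± 0.10 (adjusted p = 0.165, limma).

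The exact motif matches in these windows did not sort the members by their difference. The 11 measured genes with ERSE or ERSE-II had a median difference of 0.25, from -0.01 for Canx to 0.83 for Herpud1, and 2 of them, Herpud1 and Dnajc3, had groups that did not overlap. The 10 measured genes with a window and neither motif had a median of 0.26, from -0.02 for Sdf2l1 to 0.78 for Sel1l, and 4 had no overlap. The 7 measured genes without a window in the table had a median of 0.23. These are descriptions of small sets, without a test. Motif copies that depart from the fixed letters or lie outside the window were not counted, so the split does not tell which members respond through such motifs.

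The absence of calls rested on the litters used. Without sham replicate 1, 4 of the 28 genes passed over all genes, namely Herpud1, Sel1l, Os9 and Eif2ak3 (14.3%, all higher), where 9.29% of all genes passed as higher and 18.9% in either direction. Without any other single litter, 0 of the 28 passed. With array weights 13 of the 28 passed, all higher (46.4%), against 26.4% of all genes that passed as higher.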

How the data were processed

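The authors used RMA to make the deposited log2 expression values, according to the submitters' processing notes, but the RMA version is not given in the sources used here. Of 29214 probe sets, 15310 had 1 gene in the platform annotation, 323 several and 13581 none, and 15279 of those with 1 gene matched a current RefSeq identifier (GRCr8). Where 1 gene had several probe sets, the brightest was used. The deposited log2 values went as they were into a 2-group model without covariates (limma 3.58.1, R 4.3.3, eBayes with 8.21 total degrees of freedom, two-sided), and p-values were adjusted by Benjamini-Hochberg over 14506 genes with a threshold of 0.05. Correlations used all 40320 orders of the 8 litters. Figures came from matplotlib 3.10.9. Arrays have no read depth, and their number limits the precision.

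The members, gene lists and tests were chosen with earlier results of these data known. All members are named, with 3 genes of each other ER list and of the acinar enzyme list by smallest p, and the 8 genes closest to the member mean. Alternatives changed 1 step at a time: the scaling (quantile, median centring, or cyclic loess, the last chosen after seeing the data), the genes entered (without the dimmest 30%, averaged probe sets, or every probe set), the model (trended robust prior, array weights, replicate block, acinar or liver covariate) and the litters (each left out in turn). The model and the correlation were tested on simulated data.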

Additional observations from a re-analysis of the deposited data

Results flagged for a closer look

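A litter far from the other 3 of its group was seen in 4 of 76 comparisons of 1 group in 1 gene or list mean (Dixon's criterion at 95%, which chance meets in about 1 of 20 groups). Pdia6 was 12.57 in sham replicate 4 and 12.33 to 12.35 in the remaining sham litters. Ssr1 was 12.09 in sham replicate 4 and 12.39 to 12.42 in the remaining ones. The islet endocrine genes averaged 11.87 in sham replicate 4 and 10.23 to 10.41 in the remaining ones. The plasma cell genes averaged 8.62 in sham replicate 1 and 8.02 to 8.05 in the remaining ones.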

How the results depend on the processing

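Over all 14506 genes, 36 passed the threshold, and this count was 0 with quantile normalization, cyclic loess (chosen after seeing the data), the replicate block, the acinar mean or the liver mean, 1 with median centring, 3 with all probe sets, 59 without the 30% dimmest genes, 6358 with array weights, and 0 to 2738 when 1 litter was left out, the highest without sham replicate 1. Of the 28 members 0 passed, but 13 did with array weights and 4 without sham replicate 1 (0 to 4 over the litters left out). Median centring left 15 members higher in place of 25 and a median difference of 0.02 in place of 0.25, a shift that its own construction gives to all genes. The acinar mean difference of 0.77 was 0.51 to 0.92 with 1 litter left out. The 0.92 without sham replicate 3 passed only unadjusted, at the smallest exact permutation p possible there (0.029). With the replicate block 0 members passed and their median was 0.25; the numbers share no stated source, and the correlations of same-numbered deviations (-0.435 to 0.095) do not pair the litters. Of 60 single genes in 19 settings, 1057 differences kept their sign and side of the threshold, 55 newly passed and 28 changed sign. Median centring changed the sign of Atf6 (-0.01), Hspa5 (-0.12), Hsp90b1 (-0.13), Hyou1 (-0.03), Calr (-0.20), Pdia6 (-0.13), Syvn1 (-0.02), Derl1 (-0.0018), Sec61b (-0.01) and Ssr1 (-0.14), and quantile normalization that of Calr (-0.02). Array weights did so for Canx (0.01) and Ssr1 (-0.04), the acinar mean for Sec61b (-0.10), Ssr1 (-0.17) and Creb3l1 (0.28), and the liver mean for Canx (0.01), Sec61b (-0.02), Ssr1 (-0.12), Mbtps2 (-0.0033) and Creb3l1 (0.34). Leaving out 1 litter gave ranges across 0 for Canx (-0.03 to 0.01), Sdf2l1 (-0.16 to 0.18), Ssr1 (-0.01 to 0.15) and Creb3l1 (-0.44 to 0.01). The cause of these changes was not tested.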
